A study of Sus scrofa with 10 samples.

Results

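Potassium channel genes were followed through single cells and single nuclei of the pig medial entorhinal cortex (MEC). Every gene of the count files whose symbol begins with KCN was taken, which gave 92 of 22452 genes. The files themselves held the symbol of 87 of these, and the other 5 (KCNB2, KCNE1, KCNH1, KCNJ3 and KCNMB2) were listed by identifier and were named from a table of gene names. The samples were 10 libraries with 28229 cells. The fetuses came from crossbred litters of a pig farm. The adult brains came from sows of another study, killed with an overdose of sodium phenobarbital. The labels name no transgene or drug. They call the postnatal libraries adult, whereas the results of the study name a postnatal day for them. Whole cells, released with papain from fresh tissue, came from embryonic day 50 (E50, 1 library of 3 pooled brains), E60 (3 libraries of 1, 1 and 2 brains), E70 (3 libraries of 2, 1 and 1 brains) and the adult (1 library of 1 brain). Nuclei, sorted from snap-frozen tissue, came from 1 E70 brain and 1 adult brain. The libraries are named by stage and replicate, for example E60_2 for the second E60 library of whole cells, and the nuclei are named E70_nc and Adult_nc.

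Potassium channels let potassium leave or enter a cell through a pore that passes hardly any sodium, and they set the resting potential, the shape of the action potential and the rate of firing. Neurons combine voltage gated channels, which repolarise the membrane, with tandem pore channels that leak potassium at rest, inward rectifiers that can be opened by G proteins, and channels opened by calcium or sodium. Glia use inward rectifiers and leak channels to take up the potassium that neurons release, and auxiliary subunits without a pore of their own change how the channels open and where in the cell they are placed.

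By these roles the 92 genes were made up of 39 voltage gated subunits, 15 tandem pore, 13 inward rectifier and 8 calcium or sodium activated subunits, and 17 auxiliary proteins. The pore is recognised in the coding sequence by the codons of the selectivity filter, the loop that lines its narrowest part. A run of 5 codons, namely ACN for threonine, any codon with T in its middle, GGN for glycine, any codon that begins with T, and GGN again, where N is any base, was searched for in the reading frame and on the coding strand of the RefSeq genes of Sscrofa11.1. It was found in 61 of the 91 KCN genes that RefSeq held (67.0%) and in 182 of 20647 genes in all (0.881%). None of the 17 auxiliary genes held it, as against 12 of 13 inward rectifiers, 32 of the 38 voltage gated genes that were annotated and 12 of 15 tandem pore genes, of which 11 held 2 copies, the number of pore loops in such a subunit. A gene without the run may still encode a pore, as KCNN1, KCNN2, KCNN3 and KCNK1 do. The filter and its flanks are shown for 7 genes on which the results below turn, the first 3 of them voltage gated, then an inward rectifier, a pair opened by sodium or calcium, and a tandem pore gene at its second loop. The matched run is in capitals, and the sequences read 5′ to 3′ on the coding strand.
KCNA1: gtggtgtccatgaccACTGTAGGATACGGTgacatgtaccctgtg
KCNA6: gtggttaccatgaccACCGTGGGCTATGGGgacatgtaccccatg
KCNC2: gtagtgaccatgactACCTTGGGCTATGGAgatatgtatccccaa
KCNJ6: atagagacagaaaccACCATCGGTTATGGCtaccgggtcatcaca
KCNT2: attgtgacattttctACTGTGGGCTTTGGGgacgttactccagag
KCNMA1: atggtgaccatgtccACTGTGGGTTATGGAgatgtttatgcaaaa
KCNK13: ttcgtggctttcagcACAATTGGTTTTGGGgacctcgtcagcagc
These exonic windows lie at chr5:65562515-65562559 (KCNA1, minus strand), chr5:65657522-65657566 (KCNA6, minus), chr5:38338040-38338084 (KCNC2, minus), chr13:201332291-201332335 (KCNJ6, minus), chr14:79583022-79583066 (KCNMA1, minus) and chr7:111979952-111979996 (KCNK13, plus). KCNT2 lies on an unplaced scaffold. KCNA1 and KCNA6 are neighbours on chromosome 5, at 65556837-65565880 and 65625581-65659557.

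Cells were grouped into classes by markers after KCN genes had been kept out of the genes that defined the clusters (0 of 3000). Levels are in CPM: a gene's UMIs, summed over the cells of a class in 1 library, per 1000000 UMIs of all genes in these cells. The scale compares a gene between samples but not 1 gene with another. The libraries held 2336865 to 55755512 UMIs. The median per cell was 690 in Adult_nc, 2616 in E70_nc and 4251 to 9403 in whole cells, and pairs of libraries shared at most 57 cell barcodes. Some libraries stood apart. The neuron-like cells of E60_1 and E60_2 came almost wholly from 1 cluster, named by general neuronal markers and led by PENK and TAC1, with 549 of 563 and 81 of 82 cells. Over all cells of these libraries the cortical genes EMX1 (0.482 and 0.511 CPM) and TBR1 (0.0229 and 0.0393 CPM) were far below their 17.2 and 18.1 CPM in E60_3. E70_1 and E70_2 differed from E70_3 in a set of genes that included KCNK13, described with the stages. Where RNA sums of a class are compared, fewer expressing cells and less RNA per cell cannot be told apart, and free RNA was not removed: the 9 pan-neuronal markers, 3530 to 14400 CPM in neuron-like whole cells, still summed to 232 to 1630 CPM in microglia-like whole cells.

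All but 4 of the 92 genes had at least 1 UMI. KCNA10, KCNE2, KCNJ15 and KCNJ4 had 0, KCNE5 had 1 and KCNA5 had 2, while 70 genes were detected in each of the 10 libraries. KCN genes took 0.0965% (E60_2) to 0.305% (E70_1) of the UMIs of whole cells, and 0.491% and 0.428% in the E70 and adult nuclei. Within neuron-like whole cells their summed level was 2114 CPM at E50, 1901, 1711 and 3347 CPM at E60, and 3657, 3126 and 2903 CPM at E70. It was 651 to 1808 CPM in microglia-like, 1319 to 2449 CPM in astroglia-like and 1639 to 3094 CPM in oligodendroglia-like whole cells. The ranges of neuron-like and microglia-like cells overlapped only through the lowest neuronal value, that of E60_2.

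**Figure D1:**
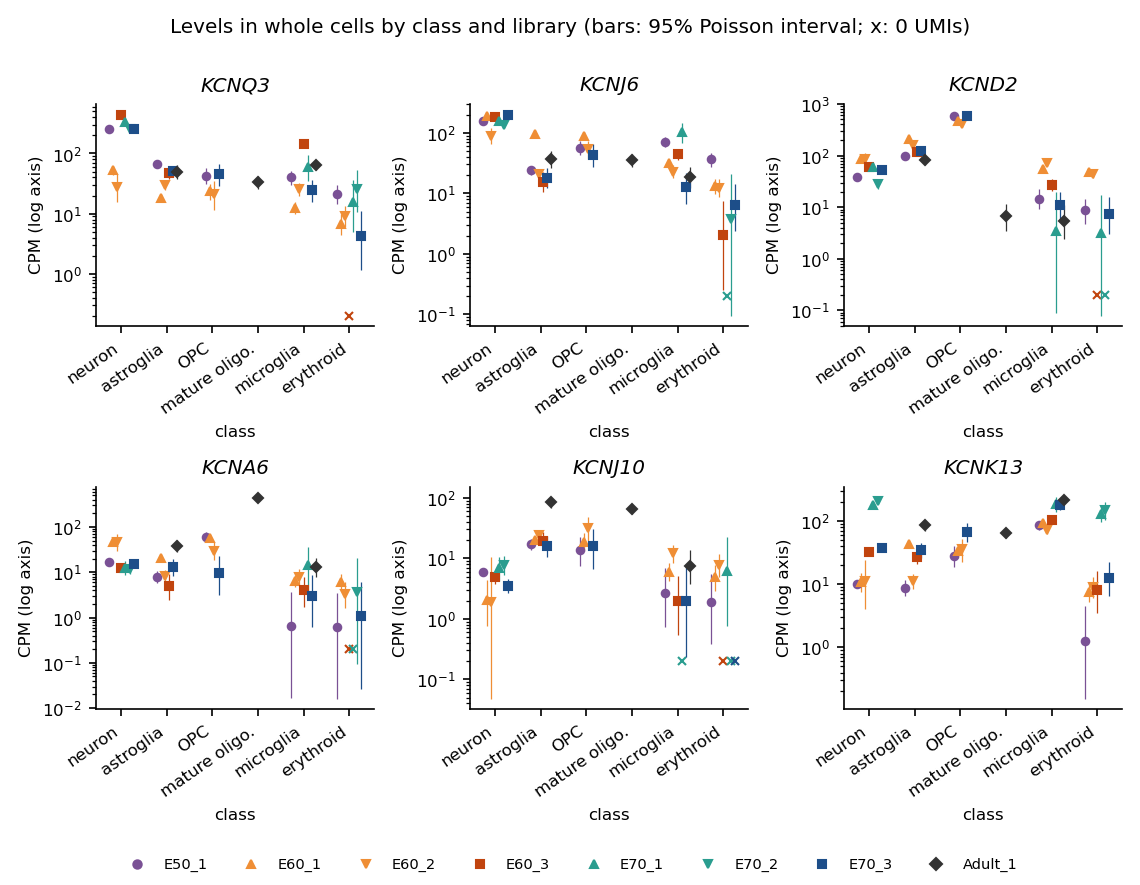
CPM of KCNQ3, KCNJ6, KCND2, KCNA6, KCNJ10 and KCNK13 in whole cells by class (horizontal) and library (symbol), on a log axis, with exact Poisson 95% intervals as bars and a cross for 0 UMIs. KCND2 lies at 404 to 576 CPM in OPC-like cells and KCNA6 at 433 CPM in mature oligodendrocyte-like cells, while KCNK13 lies at 72.6 to 219 CPM in microglia-like cells and also reaches 180 and 213 CPM in the neuron-like cells of E70_1 and E70_2.

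Which channel genes separated the neuronal and glial classes was asked over the 8 libraries of whole cells, with each class set against the mean of the other 3 and the library as a block (edgeR's quasi-likelihood test with Benjamini-Hochberg adjustment over the 15741 genes tested). Of the 92 members, 68 passed the filter on low counts. A sum entered with at least 20 cells, which left out the neuron-like cells of Adult_1, the glial classes of E70_2, the astroglia-like and oligodendroglia-like cells of E70_1 and the oligodendroglia-like cells of E60_3. The classes were built from other genes of the same cells, so the p-values describe how steady a difference was over the libraries.

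In neuron-like cells, 37 of the 68 members were higher than in the other classes (23.8% of all genes) and 3 were lower (13.3% of all genes), with a median difference of 1.07 on the log2 scale over the members and 0.163 over all genes. Members of each role were among them: 18 of 31 voltage gated, 5 of 7 calcium or sodium activated, 5 of 9 tandem pore, 3 of 9 inward rectifier and 6 of 12 auxiliary genes were higher. KCNQ3, a subunit of the M-type channel that limits repetitive firing, was higher by 2.15 ± 0.27 (log2, ± SE, edgeR adjusted p = 2.2e-06). It was at 259 CPM in neuron-like cells at E50, at 52.3, 28.0 and 444 CPM at E60 and at 336, 253 and 259 CPM at E70. The glial classes held 12.4 to 144 CPM in whole cells, so that the 2 low neuronal values, those of E60_1 and E60_2, lay within the glial range and the other 5 above it.

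Silent subunits had the largest differences on the log2 scale, from few UMIs. KCNS2, which forms no channel on its own and modifies others, was at 2.57 CPM at E50, at 9.17, 20.5 and 1.59 CPM at E60 and at 2.08, 0.242 and 2.01 CPM at E70. In the other 3 classes it lay between 0 and 0.991 CPM, so that E70_2 fell within their range, and its highest values were those of E60_1 and E60_2. The difference was 4.94 ± 0.48 (edgeR adjusted p = 2.2e-07). KCNV1, another silent subunit, was higher by 3.67 ± 0.47 and KCNT1, a channel opened by sodium, by 2.60 ± 0.43. KCNT1 and KCNA4 (2.46 ± 0.38) were at their highest neuronal levels in E60_1 and E60_2, where KCNT1 reached 9.17 and 7.47 CPM and KCNA4 15.3 and 14.9 CPM. Without these 2 libraries, 27 members were higher in neuron-like cells (14.5% of all genes) and 0 lower (8.31% of all genes). The differences of KCNT1 and KCNA4 were then 1.81 and 1.67 and stayed past the threshold, while KCNC4, which drives fast repolarisation, fell short of it (0.64).

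Channels of the leak and G protein-gated currents were also higher. KCNK1, a tandem pore channel, was at 110 CPM at E50, at 14.3, 18.7 and 110 CPM at E60 and at 78.3, 92.6 and 98.1 CPM at E70. Its difference from the glial classes was 2.40 ± 0.32 (edgeR adjusted p = 5.6e-06). E60_1 and E60_2 were the low libraries, and their values overlapped those of oligodendroglia-like cells (5.04 to 39.2 CPM). KCNJ3 and KCNJ6 encode subunits of the inward rectifier that G proteins open below many inhibitory receptors. Both were higher, KCNJ6 by 2.03 ± 0.29 (edgeR adjusted p = 6e-06 for KCNJ3 and 1.3e-05 for KCNJ6). KCNJ6 was at 89.6 CPM in E60_2 and at 135 to 197 CPM in the other 6 neuronal sums of whole cells, while astroglia-like cells held 15.6 to 95.6 CPM. KCNN2, a channel opened by calcium after each spike, was at 16.3 to 48.9 CPM in neuron-like cells and at 0 to 17.7 CPM in the glial classes, a difference of 2.54 ± 0.28 (edgeR adjusted p = 4.7e-07).

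Further members of each role were higher in neuron-like cells. Among the voltage gated genes, KCNC1, a relative of KCNC2 in fast-spiking cells, was higher by 2.12 ± 0.30, and KCNH1, KCNH2, KCNH5 and KCNH7, slowly gated channels of the ether-a-go-go family, by 1.14 to 1.77. KCNC2 itself was at 44.2 CPM at E50, at 105, 129 and 98.9 CPM at E60 and at 101, 96.0 and 99.6 CPM at E70, and was higher by 2.04 ± 0.28 (edgeR adjusted p = 7.4e-06). KCNN1, KCNN3 and KCNMA1 were the other calcium activated genes, at 1.43, 1.19 and 1.13. KCNK2, KCNK9 and KCNK3 among the tandem pore genes were at 1.69, 1.62 and 1.31, and KCNIP4, a partner of A-type channels, led the auxiliary genes at 1.59 ± 0.20 (edgeR adjusted p = 3.3e-06). KCNIP1, KCNJ13 and KCNJ2 passed the threshold in none of the 4 classes. KCNA2, KCNE1, KCNE4, KCNF1, KCNJ9, KCNN4 and KCNRG did not pass the filter, with 11 (KCNF1) to 415 (KCNE1) UMIs over all cells.

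The 3 members that were lower in neuron-like cells each had a high level in a glial class: KCNIP3, a calcium-binding partner of A-type channels (-1.16 ± 0.44, edgeR adjusted p = 0.043), KCNJ10, the inward rectifier by which glia buffer potassium (-1.15 ± 0.35, adjusted p = 0.013), and KCNK13, a leak channel known from microglia (-0.91 ± 0.30, adjusted p = 0.022). None of the 3 passed the threshold without E60_1 and E60_2. Genes that handle potassium without a KCN symbol, such as pumps, cotransporters and channel scaffolds, were given by a separate list of 37 genes, of which 35 were found in the files under these symbols. Of the 32 tested, 20 were higher in neuron-like cells (23.8% of all genes) and 3 lower (13.3% of all genes). SLC12A5, the transporter that exports potassium and chloride from maturing neurons, was higher by 3.69 ± 0.37 (edgeR adjusted p = 1.4e-07).

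**Figure D2:**
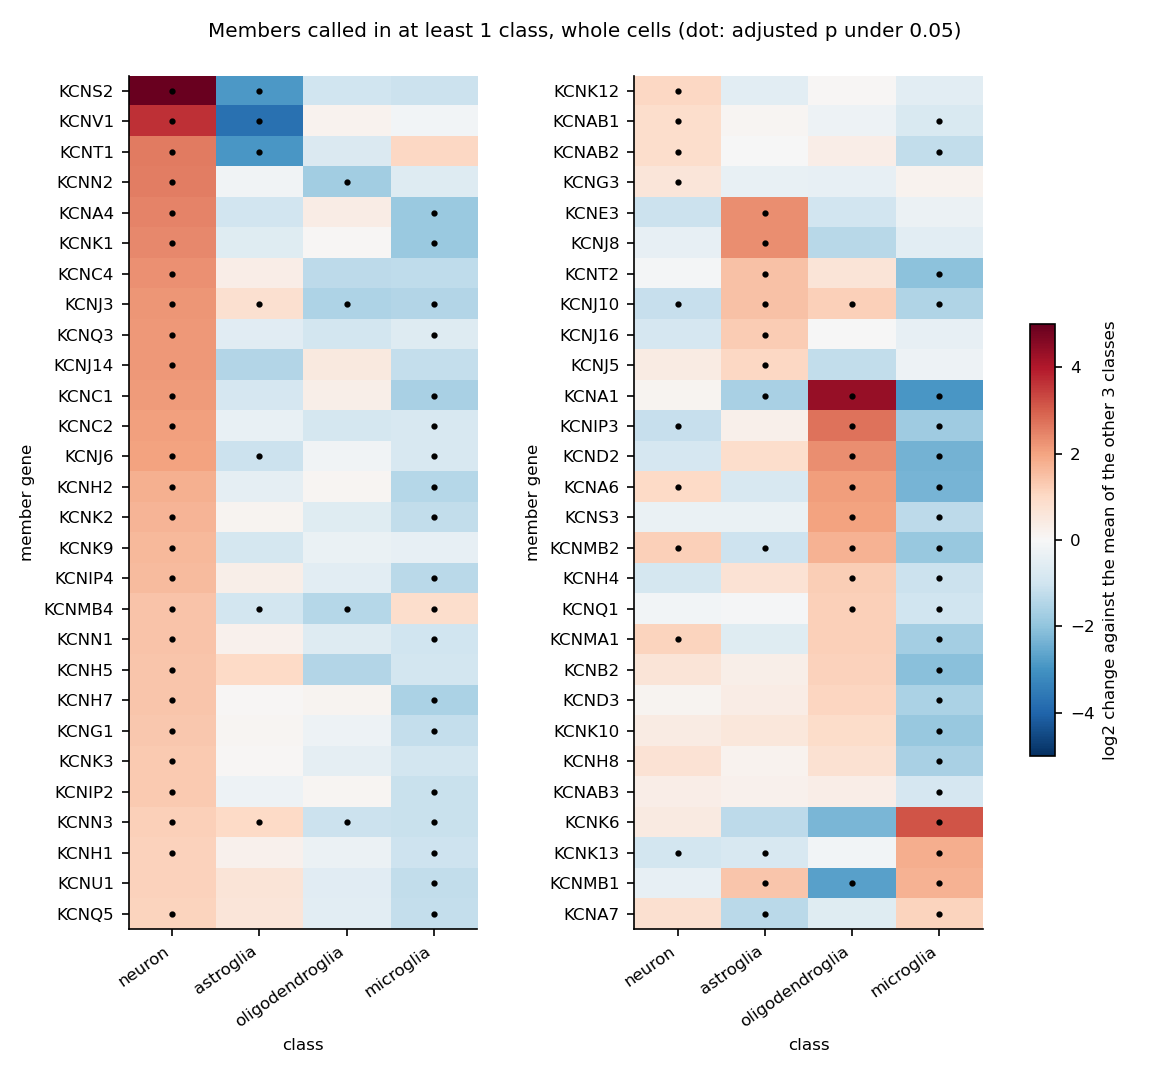
Log2 difference of each class from the mean of the other 3 in whole cells (edgeR) for 56 KCN genes that passed the threshold in at least 1 class, with a dot where the adjusted p is under 0.05. Most dotted values are positive in the neuron column (34 higher, 3 lower among the genes drawn) and negative in the microglia column (5 higher, 36 lower).

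In astroglia-like cells, which held astrocytes and radial glia, 9 members were higher (18% of all genes) and 10 lower (9.61% of all genes), with a median difference of 0.0913 over the members and 0.0696 over all genes. Inward rectifiers made up 5 of the 9 that were higher, out of 9 tested, and no voltage gated or tandem pore gene was among them. KCNJ10 was at 17.2 CPM at E50, at 19.8, 24.2 and 19.7 CPM at E60, at 15.9 CPM in E70_3 and at 85.0 CPM in the adult. The 5 fetal values lay close together and the adult stood above them, and neuron-like cells held 1.87 to 7.73 CPM. The difference was 1.45 ± 0.27 (edgeR adjusted p = 0.00034). KCNJ16, which joins KCNJ10 in mixed channels, was higher by 1.28 ± 0.31, and KCNJ8, the pore of an ATP-sensitive channel, by 2.32 ± 0.39 (edgeR adjusted p = 0.003 and 1e-04). ABCC9, the regulatory subunit that joins KCNJ8, was higher as well, by 2.04 ± 0.28 (edgeR adjusted p = 1.2e-05). KCNJ8, KCNJ2 and KCNE3 had still higher levels in vascular-like cells, which were in none of the 4 classes. The vascular marker list stood at 74.4 to 235 CPM in the astroglia-like sums of whole cells, and its part in these values was not tested.

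KCNT2, a channel opened by sodium whose filter is shown above, was another member with a glial level. In astroglia-like cells it was at 204 CPM at E50, at 282, 265 and 421 CPM at E60, at 423 CPM in E70_3 and at 284 CPM in the adult, and its difference was 1.48 ± 0.30 (edgeR adjusted p = 0.00085). Microglia-like whole cells, at 14.7 to 110 CPM, did not reach any of these values, while neuron-like cells (93.1 to 238 CPM) overlapped them. Fetal OPC-like cells, at 210 to 388 CPM, lay within the astroglial range, and the adult oligodendroglia-like whole cells were at 27.7 CPM. KCNE3, an auxiliary subunit, was at 1.71 to 13.6 CPM in astroglia-like cells, 2.32 ± 0.45 above the other classes. The members that were lower included KCNV1 (-3.72 ± 0.72), KCNT1 (-2.91 ± 0.53) and KCNS2 (-2.85 ± 0.78), all of which were among the neuronal genes above. Without E60_1 and E60_2, 6 members were higher (11.3% of all genes) and 5 lower (5.7% of all genes), and KCNJ16, KCNJ5, KCNJ3 and KCNMB1 were no longer past the threshold. In the potassium handling list, 6 of 32 were higher (18% of all genes) and 9 lower (9.61% of all genes).

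Oligodendroglia-like cells, precursors (OPC) in the fetus and mostly mature oligodendrocytes in the adult, had 9 members higher (5.94% of all genes) and 5 lower (6.91% of all genes), with a median of -0.148 over the members and -0.105 over all genes. KCNA1 and KCNA6, the neighbouring voltage gated genes of chromosome 5 whose filters are shown above, were both higher. KCNA1 was at 11.5 CPM at E50, at 6.93 and 2.98 CPM in E60_1 and E60_2, at 17.7 CPM in E70_3 and at 107 CPM in the adult. None of the other 3 classes exceeded 4.67 CPM in whole cells, so that E60_2 was the only library to overlap them, and the difference was 4.37 ± 0.38 (edgeR adjusted p = 1e-07). KCNA6 was at 59.7, 60.4, 29.8, 9.81 and 433 CPM in the same order and was higher by 2.10 ± 0.40 (edgeR adjusted p = 0.0014). Neuron-like cells held 12.1 to 46.7 CPM, so that E70_3 lay below their range, E60_2 inside it and the other 3 above it.

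A second set marked the precursors. KCND2, the pore subunit of an A-type channel on chromosome 18 at 26139457-26624210, was at 576 CPM at E50, at 466 and 404 CPM in E60_1 and E60_2 and at 573 CPM in E70_3 in OPC-like cells. The other 3 classes stayed at or below 208 CPM in whole cells. Its partner KCNIP3 followed at 252, 212, 136 and 286 CPM, against at most 79.4 CPM in the other 3 classes, but an unnamed glial cluster led by KCNIP3 and EGFR held 166 to 466 CPM. Over the oligodendroglia-like class KCND2 was higher by 2.34 ± 0.41 and KCNIP3 by 2.71 ± 0.41 (edgeR adjusted p = 0.00062 and 0.00012), although both were low in the adult whole cells, at 6.56 and 11.6 CPM. KCNJ10 was higher here too, by 1.19 ± 0.33 (edgeR adjusted p = 0.02). The lower members were KCNMB1, KCNN2, KCNJ3, KCNMB4 and KCNN3, with differences of -2.71 to -1.07. The class rested on few cells, and without E60_1 8 members were past the threshold (7% of all genes), without E50_1 9 (6.38% of all genes). In the potassium handling list, 4 of 32 were higher (5.94% of all genes) and 3 lower (6.91% of all genes).

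Most members that separated microglia-like cells were lower there. Of the 68 members, 38 were lower (32.5% of all genes) and 5 higher (19.5% of all genes), with a median of -1.09 over the members and -0.285 over all genes. Of the voltage gated members 20 of 31 were lower and only KCNA7 was higher, by 1.12 ± 0.32 (edgeR adjusted p = 0.0063). KCNA7 was at 4.12 ± 0.115 CPM in microglia-like cells at E60 (mean ± SD, n = 3) and at 10.2 ± 0.525 CPM at E70 (n = 2). Neuron-like cells overlapped this, at 7.11 CPM at E50 and 5.61 CPM in the pooled later fetal libraries. KCNA7 also overlaps NTF4 on the same strand. KCNK13, the tandem pore channel on chromosome 7 at 111866471-111981304 whose second filter is shown above, was at 86.0 CPM at E50, at 92.6, 72.6 and 107 CPM at E60, at 186 and 180 CPM in E70_1 and E70_3 and at 219 CPM in the adult. In neuron-like cells it was at 10.2, 10.9, 11.2 and 33.0 CPM at E50 and E60, but at 180, 213 and 37.5 CPM at E70, so that the 2 classes overlapped only through E70_1 and E70_2. The difference was 1.82 ± 0.23 (edgeR adjusted p = 1.3e-06). KCNK6, a leak channel of macrophages, was at 1.33 to 1.96 CPM in the fetal libraries other than E70_1, where it was at 0, and at 7.58 CPM in the adult, 3.14 ± 0.52 above the other classes (edgeR adjusted p = 4.1e-05).

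The auxiliary genes KCNMB1 (1.72 ± 0.48) and KCNMB4 (0.88 ± 0.25) were the other members that were higher in microglia-like cells (edgeR adjusted p = 0.0049 and 0.0061), although KCNMA1, the pore they serve, was lower by -1.69 ± 0.42 (adjusted p = 0.0021). KCNMB4 was at 14.7 ± 12.8 CPM in microglia-like cells at E60 (mean ± SD, n = 3) and at 42.8 ± 15.8 CPM at E70 (n = 2). Neuron-like cells overlapped this, at 16.1 CPM at E50 and 31.9 CPM in the pooled later fetal libraries. KCNMB1 lies inside KCNIP1 on the opposite strand, and whether the counting used the strand is not given in the sources used here. Fetal values of KCNMB1 were at most 5.91 CPM, and the adult value was 17.2 CPM. Among the lower members, KCNA1 (-2.90 ± 0.53), KCND2 (-2.37 ± 0.43) and KCNA6 (-2.31 ± 0.45) were those of oligodendroglia-like cells. Of the potassium handling list 17 of 32 were lower (32.5% of all genes) and 4 higher (19.5% of all genes). Among the higher was the cotransporter SLC12A7, at 18.6 to 48.1 CPM except for 0 in E70_1, with a difference of 2.76 ± 0.33 (edgeR adjusted p = 6e-07).

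Other size factors moved these splits. With DESeq2, the median of all genes was 0.0449 in place of 0.163 for neuron-like cells and -0.102 in place of -0.285 for microglia-like cells. Of all genes called, 3295 of 6212 were then higher in neuron-like cells (edgeR 3752 of 5840), 2591 of 4946 in astroglia-like cells (edgeR 2827 of 4340) and 3937 of 8098 in microglia-like cells (edgeR 3068 of 8183). The members' counts with DESeq2 were 35 higher and 5 lower, 8 and 13, and 6 and 32, in that order, and no member past the edgeR threshold changed direction.

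Within neurons, excitatory-like cells were set against interneuron-like cells in the 5 libraries that held at least 20 of each (E50_1, E60_3 and the 3 at E70), with the library as a block. Of 55 members tested among 13799 genes, 7 were higher in excitatory-like cells (6.59% of all genes) and 6 in interneuron-like cells (4.24% of all genes). With DESeq2, 7 and 5 members and 552 of 1077 called genes were in these directions, where edgeR gave 909 of 1494. The medians were 0.153 over the members and 0.0644 over all genes.

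Leak channels and KCNQ3 marked the excitatory-like cells. KCNK2, a leak channel that responds to stretch and temperature, was at 157, 424, 256, 205 and 273 CPM in the excitatory-like cells of E50_1, E60_3, E70_1, E70_2 and E70_3. In the interneuron-like cells of the same libraries it was at 34.6, 38.1, 44.6, 59.7 and 40.9 CPM. The ranges did not overlap, and the difference was 2.68 ± 0.20 (edgeR adjusted p = 5.5e-09). KCNK1 was at 166, 130, 94, 118 and 109 CPM as against 48.5, 11.5, 16.2, 9.08 and 20.4 CPM (2.91 ± 0.21, edgeR adjusted p = 1.9e-09). KCNQ3, on chromosome 4 at 8669969-8978656, was at 333, 541, 400, 299 and 286 CPM as against 41.6, 58.3, 97.4, 108 and 60.6 CPM (2.38 ± 0.21, edgeR adjusted p = 6.1e-08). Neither overlapped between the classes. KCNIP4 (1.36 ± 0.21), KCNN3 (1.21 ± 0.20), KCNJ3 (0.83 ± 0.18) and KCNJ6 (0.64 ± 0.16) made up the rest. Their ranges overlapped, but within a library the excitatory value was the higher in all 5, or for KCNJ3 in 4.

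Among these whole cells, interneuron-like cells were marked by KCNC2, the fast delayed rectifier whose filter is shown above, and by auxiliary subunits. KCNC2 was at 325, 491, 290, 304 and 384 CPM in interneuron-like cells and at 16.5, 37.7, 62.2, 45.6 and 68.6 CPM in excitatory-like cells. The lowest interneuron value was above the highest excitatory value, with a difference of -2.94 ± 0.21 for excitatory minus interneuron (edgeR adjusted p = 1.5e-09). KCNIP1, a calcium-binding partner of A-type channels, was at 388, 515, 353, 374 and 444 CPM as against 84.9, 49.7, 84.7, 92.2 and 56.0 CPM (-2.45 ± 0.20, edgeR adjusted p = 2.1e-08). KCNAB1, a cytoplasmic beta subunit that speeds inactivation, was at 145, 294, 266, 259 and 285 CPM as against 27.8, 69.4, 145, 120 and 98.3 CPM (-1.46 ± 0.17, edgeR adjusted p = 3.1e-06). KCNT1 (-1.84 ± 0.47), KCNS3 (-1.33 ± 0.34) and KCNN2 (-1.12 ± 0.25) were also higher in interneuron-like cells, KCNT1 in all 5 libraries and KCNS3 and KCNN2 in 4 each. KCNT1 rested on few UMIs, at 3.6 CPM in interneuron-like and 1.39 CPM in excitatory-like cells of E60_3. At E70 it was at 3.99 ± 1.85 and 0.685 ± 0.611 CPM (mean ± SD, n = 3). In the potassium handling list 3 of 25 were higher in excitatory-like cells (6.59% of all genes) and 5 in interneuron-like cells (4.24% of all genes).

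**Figure D3:**
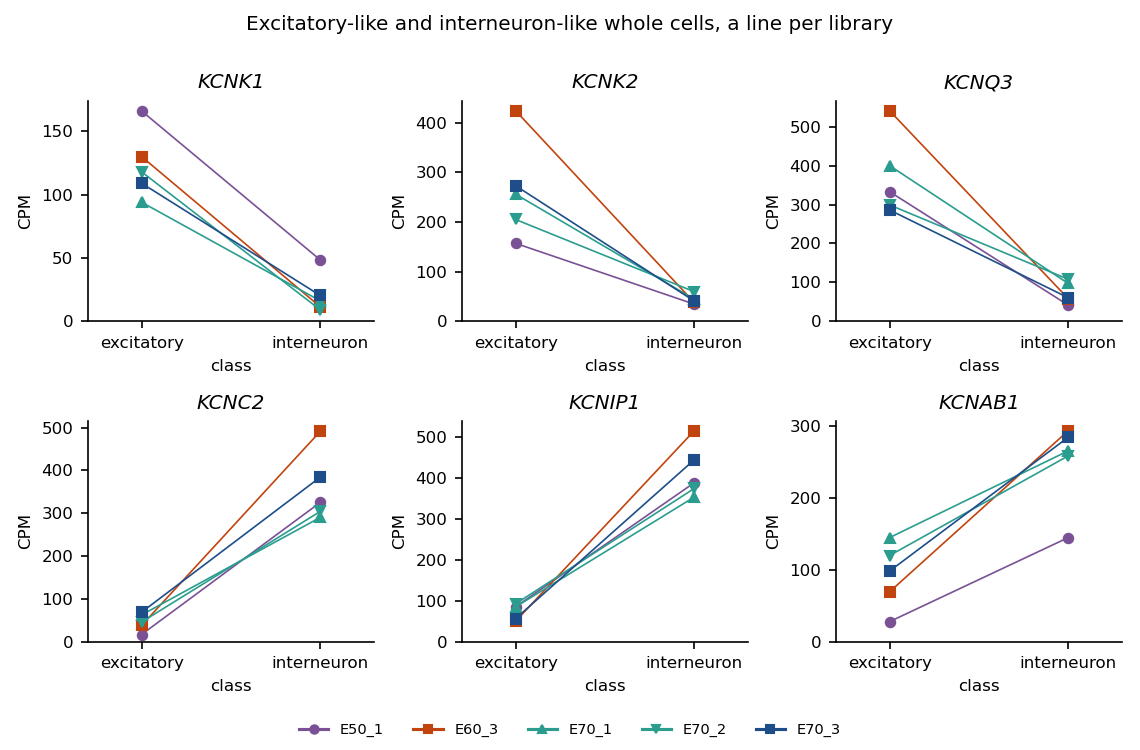
CPM of 6 KCN genes in excitatory-like and interneuron-like whole cells (linear axes from 0), with 1 line for each of the 5 libraries that held both. The lines of KCNC2, KCNIP1 and KCNAB1 rise toward interneuron-like cells in all 5 libraries, and those of KCNK1, KCNK2 and KCNQ3 fall.

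Whether channel genes changed between E60 and E70, the only stages with replicate libraries, was tested in neuron-like cells over 3 against 3 libraries. No member of 53 and no gene of 13722 passed the threshold with edgeR (0%), while 10 members had an unadjusted p under 0.05 (23.8% of all genes). DESeq2 called 5 members (10.4% of all genes), namely KCNK13, KCNG2, KCNK12 and KCNQ5 as higher at E70 and KCNC4 as lower. The median difference was 0.279 over the members and 0.0243 over all genes. KCNQ5, a further subunit of M-type channels, was at 18.7, 16.8 and 41.9 CPM at E60 and at 98.4, 77.6 and 52.6 CPM at E70 (25.8 ± 14.0 and 76.2 ± 22.9, mean ± SD, n = 3). The groups did not overlap, and the difference was 1.34 ± 0.39 (edgeR adjusted p = 0.16). The lower E60 values were those of E60_1 and E60_2, and the higher E70 values those of E70_1 and E70_2, the libraries that stood apart. E60_3 and E70_3 were at 41.9 and 52.6 CPM.

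The E60 libraries differed among themselves, as described above, and the part of this in the stage values was not tested. Without E60_3, 18 of 55 members passed the threshold, 12 higher at E70 (16.3% of all genes) and 6 lower (17.7% of all genes). KCNA6 (46.6, 46.7 and 12.5 CPM at E60; 12.5, 12.1 and 14.9 CPM at E70) and KCNC4 (35.7, 20.5 and 1.67 CPM; 2.43, 3.14 and 5.57 CPM) were high in E60_1 and E60_2, and without these libraries, which leaves E60_3 alone against the E70 group, their differences were 0.08 and 1.22, the opposite direction. KCNQ3 was low in the same libraries, as given above.

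The E70 group was not uniform either. KCNK13 was at 10.9, 11.2 and 33.0 CPM in neuron-like cells at E60 and at 180, 213 and 37.5 CPM at E70 (18.4 ± 12.7 and 144 ± 93.3, mean ± SD, n = 3), a difference of 2.74 ± 0.68 (edgeR adjusted p = 0.16). E70_1 and E70_2 were high and E70_3 lay near E60_3. The same libraries were high in cells of other kinds. In erythroid-like cells KCNK13 was at 133 and 149 CPM in E70_1 and E70_2 and at 12.8 CPM in E70_3, and in intermediate progenitor-like cells at 181, 225 and 41.2 CPM. KCNG2, a silent subunit, was at 37.0 and 33.5 CPM in erythroid-like cells of E70_1 and E70_2 against 1.07 CPM in E70_3, and in neuron-like cells at 32.6, 40.4 and 10.2 CPM. A count made after these values were seen found 415 of 2183 genes (19%) that were at least 2-fold higher in both E70_1 and E70_2 than in each other E60 and E70 library of whole cells in 4 classes, and 2 of 13 members (15.4%), KCNK13 and KCNG2. The labels name no batch. By the numbers that the study gives to its libraries, read here as shared sequencing, E60_1 went with E70_1 and E60_3 with E70_3. Within these presumed pairs KCNK13 in neuron-like cells went from 10.9 to 180 CPM and from 33.0 to 37.5 CPM.

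In microglia-like cells (3 libraries at E60, 2 at E70) no member of 39 and no gene of 12291 passed the threshold (0%), 6 members had an unadjusted p under 0.05 (10.9% of all genes), and DESeq2 called 3 (2.42% of all genes), which were KCNAB1, KCNG2 and KCND2. KCNK13 was at 92.6, 72.6 and 107 CPM at E60 and at 186 and 180 CPM at E70 in these cells, and the groups did not overlap. The E70_1 sum held 20 cells, and KCNK13 was also high in the neuron-like, erythroid-like and intermediate progenitor-like cells of that library, as given above. In the cluster led by KCNIP3 and EGFR no member of 26 and no gene of 8764 passed the threshold (0%), 12 members had an unadjusted p under 0.05 (12.9% of all genes), and DESeq2 called KCNK13 (3.19% of all genes). A stage test of astroglia-like cells was not run, since 1 E70 library held at least 20 of them. Of the potassium handling list no gene passed the threshold in the 3 stage tests with edgeR.

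**Figure D4:**
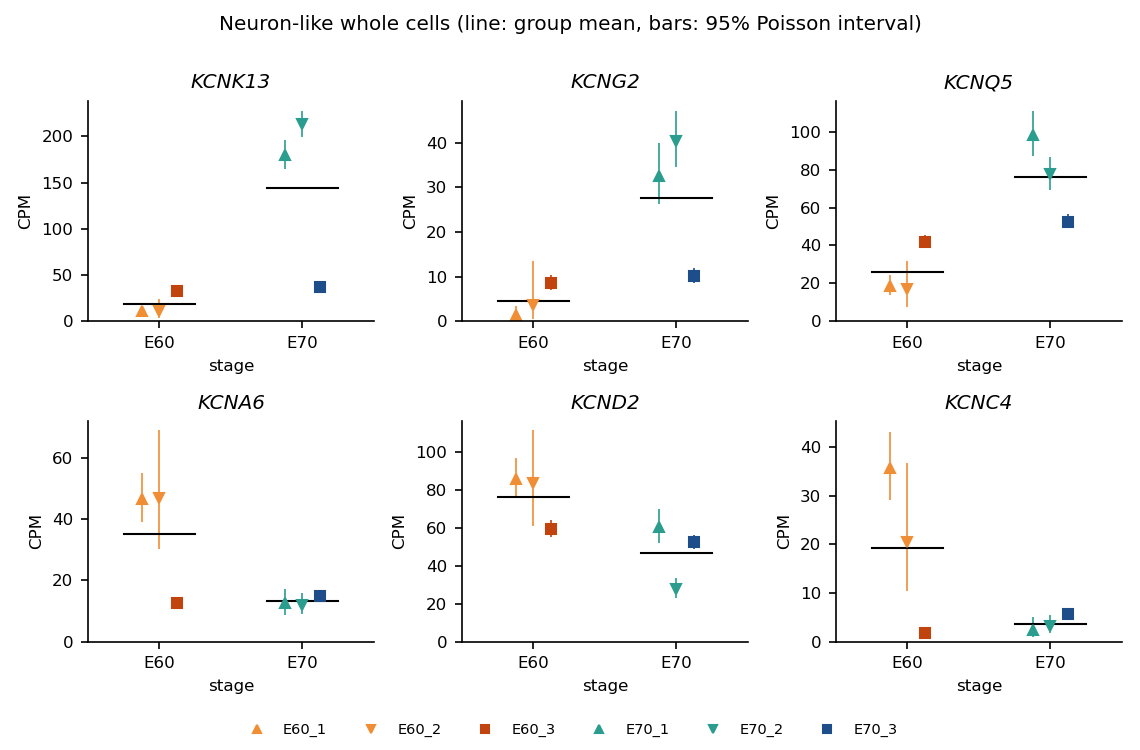
CPM of 6 KCN genes in neuron-like whole cells at E60 and E70 (linear axes from 0), with 1 point per library, exact Poisson 95% intervals as bars and a line for the mean of each group. KCNQ5 does not overlap between the stages, with its lower E60 values in E60_1 and E60_2 and its higher E70 values in E70_1 and E70_2. KCNC4 is high in E60_1 and E60_2 (35.7 and 20.5 CPM), and KCNK13 is high in E70_1 and E70_2 (180 and 213 CPM) but not in E70_3 (37.5 CPM).

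At E50, in 1 library, excitatory-like cells were set beside those of E60_3 and E70. Members with at least 10 UMIs, a 3-fold ratio of CPM and Poisson intervals that did not overlap are named, with no test. Of 74 members, 2 were higher at E50 (3.55% of all genes) and 11 lower (11.4% of all genes). KCNB2, a delayed rectifier, had 11.2 CPM at E50 and 3.12 CPM in the later libraries when pooled, and KCNN2 had 66.9 and 20.6 CPM. KCNIP4 had 18.1 CPM at E50 and 91.0, 164, 70.5 and 74.8 CPM later, so that E50 lay below all later libraries. KCNK13 (9.01 as against 67.5 CPM), KCNG3, KCNH5, KCNJ16, KCNS3, KCNAB1, KCNMB3, KCND2, KCNC2 and KCNQ5 were the other members that were lower.

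Nuclei hold unspliced transcripts and lack the cytoplasm, and were kept apart from whole cells. The E70 nuclei were 1 library of 1 brain, so the preparation cannot be told apart from the brain or the library. In neuron-like nuclei at E70, 6 of 72 members were at least 3-fold above whole cells with intervals apart (4.77% of all genes) and 2 were below (13.4% of all genes), and the median ratio was 1.11 over the members and 0.984 over all genes. KCNC2 was at 596 CPM in nuclei and at 101, 96.0 and 99.6 CPM in the 3 libraries of whole cells, a ratio of 6.01. KCNMA1, the calcium activated channel of large conductance, was at 426 CPM in nuclei and at 128, 116 and 123 CPM in whole cells, and KCND2 at 189 CPM and at 60.7, 27.8 and 52.6 CPM. KCNMB2 (4.36), KCNN2 (3.85) and KCNJ13 (3.42) were the other genes with a higher ratio. KCNJ13 lies inside GIGYF2 on the opposite strand, and was at 33.3 to 110 CPM in neuron-like, 42.5 to 110 CPM in microglia-like and 48.8 to 202 CPM in astroglia-like whole cells, with no call in any class. KCNAB3, with 1 UMI in the nuclei, was among the lower genes, at 0.37 CPM as against 11.2 CPM in the pooled whole cells.

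The neuron-like nuclei did not fall into the same clusters as the whole cells. A cluster led by VIP and ARPP21, among whose leading genes was KCNC2, held 341 of the 676 neuron-like nuclei at E70 but 3, 1 and 8 cells of E70_1, E70_2 and E70_3. It was classed as excitatory-like. In excitatory-like cells KCNC2 was at 542 CPM in nuclei and at 64.0 CPM in the pooled whole cells, a ratio of 8.47. Within interneuron-like cells, which do not include that cluster, KCNC2 was again higher in nuclei, at 1310 CPM as against 290, 304 and 384 CPM. KCND2 was higher in the nuclei of each class that could be compared at E70, with ratios of 5.64 in interneuron-like cells, 5.37 in the EGFR cluster, 4.30 in astroglia-like cells and 4.26 in OPC-like cells (2440 as against 573 CPM in E70_3).

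Longer genes tended to have higher ratios. Across the 71 members with an annotated span, Spearman's rho between span and ratio in neuron-like cells was 0.32, and it was 0.558 across the 12952 genes that had one. The members share these libraries, so rho is a description. The 27 members that span over 100 kb had a median ratio of 1.79, and all 2606 such genes 1.69. The 44 shorter members had a median of 0.957 and the 10346 shorter genes 0.809. KCNMA1 spans 760956 bases and KCND2 484754 bases, whereas KCNAB3 spans 7610 bases. Other members went against this order. KCNJ13, at a ratio of 3.42, spans 9788 bases, and KCNH8, at 0.713, spans 429124 bases.

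**Figure D5:**
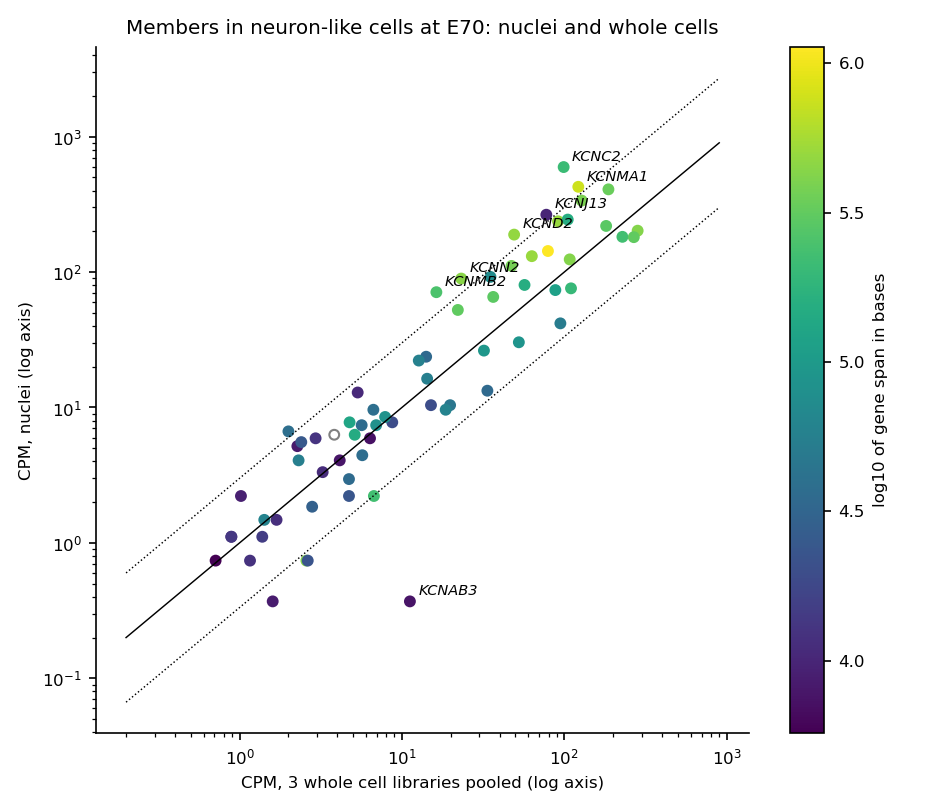
CPM of 68 KCN genes in neuron-like cells at E70, with nuclei on the vertical and the 3 pooled libraries of whole cells on the horizontal log axis, a solid line for equal levels, dotted lines for a 3-fold difference, and the span of the gene as colour (an open circle where none was annotated). KCNC2 lies at 596 CPM in nuclei and 99.1 CPM in whole cells, above the upper dotted line, and KCNAB3 at 0.37 and 11.2 CPM below the lower, while 1 gene with 0 UMIs in nuclei is left out.

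In the adult, nuclei and whole cells could be set side by side in mature oligodendrocyte-like and in microglia-like cells. In the former, 16 of 54 members were higher in nuclei (16.4% of all genes) and 1, KCNAB3, was lower (17.2% of all genes). KCNRG (7.24 and 0.508 CPM), KCNMB2 (10.9 and 1.02 CPM) and KCNC1 (47.1 and 6.60 CPM) had the widest ratios, and KCNA1 (188 and 108 CPM) and KCNA6 (637 and 433 CPM) were high in both. The ratio of KCNRG rested on 10 and 1 UMIs and that of KCNMB2 on 15 and 2. KCNRG overlaps TRIM13 on the same strand. In microglia-like cells, 7 of 41 members were higher in nuclei (6.38% of all genes) and 0 lower (8.56% of all genes). They were KCNJ3 (57.9 and 8.96 CPM), KCNMB1 (106 and 17.2 CPM), KCNJ6, KCNAB1, KCNJ13, KCNAB2 and KCNH8. The nuclei came from another brain and were read at a median of 690 UMIs, so the preparation and the brain cannot be told apart.

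Beside the fetus, the adult whole cells differed in 14 members in oligodendroglia-like cells, where maturation and age cannot be told apart. Of 52 members 5 were higher in the adult (6.5% of all genes) and 9 lower (6.71% of all genes). KCNA1 (12.3-fold), KCNG2 (11.5-fold), KCNIP2 (10.0-fold), KCNA6 (8.79-fold) and KCNJ10 (3.47-fold) were above the pooled fetal cells. KCNG2 was not particular to this class. In the same adult library it was at 11.2 CPM in astroglia-like and 14.4 CPM in vascular-like cells. The pooled fetal cells of these kinds held 2.11 and 3.53 CPM, and a part of the library in the KCNG2 values was not tested. KCND2 was at 6.56 CPM in the adult and at 490 CPM in the pooled fetal cells, KCNMB2 at 1.01 and 34.2 CPM, KCNIP3 at 11.6 and 218 CPM and KCNT2 at 27.7 and 276 CPM. KCNIP1, KCNMA1, KCNH8, KCNK2 and KCNH7 were also lower. In the OPC-like nuclei of the adult brain KCND2 was at 749 CPM and KCNIP3 at 318 CPM, while the mature oligodendrocyte-like nuclei of the same library held 27.5 and 29.0 CPM.

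The other adult glia differed from the fetal ones in fewer members. In astroglia-like cells 5 of 64 were higher in the adult (8% of all genes) and 0 lower (3.78% of all genes). KCNJ10 was at 85.0 CPM as against 19.8 CPM in the pooled fetal cells, and KCNMB4 at 34.6 and 5.20 CPM, followed by KCNIP2, KCNC2 and KCNJ13. In microglia-like cells 0 of 53 members were higher (1.79% of all genes) and 0 lower (0.762% of all genes) by the same rule. The rule asks for intervals apart from those of each fetal library, and the E70_1 sum, with 20 cells and 284324 UMIs, had wide ones. KCNK6 and KCNMB1, whose adult values given above exceeded all fetal ones, did not pass it. With 1 adult library of each kind, these differences have no replicate check, and the intervals cover counting error only.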

How the data were processed

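Single cells and nuclei were captured on the 10x Genomics version 2 platform and, per the labels and the methods of the study, aligned by Cell Ranger 2.20 against Sscrofa11.1, intronic reads counted. For each library the authors deposited raw UMI counts of the called cells. The KCN genes and the other gene lists were chosen with earlier results of these data known. Labels and the study's library table differ in the pooled brains of E70_1 and E70_3; the labels are given.

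Cells were scaled to 10000 UMIs, 3000 variable genes (without KCN, partner and marker genes) and 50 components were merged by mutual nearest neighbours, and Louvain clustering at a resolution of 1.6 gave 56 clusters. A cluster took the name of the marker list with the highest mean standardized expression, with at least 3 markers detected. It stayed unnamed if more of its top 10 genes belonged to another list, if its UMIs were low and no marker of its own was among those genes, or if it shared leading genes with a larger cluster of another class; 2882 cells were unnamed. Doublets were kept in the main analysis; 1077 were left out in an alternative.

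UMIs were summed per library and class with at least 20 cells. Stages, classes and neuron types were tested with edgeR 4.0.16 (TMM, filterByExpr, quasi-likelihood F test, Benjamini-Hochberg over all genes tested, adjusted p under 0.05), in R 4.3.3; DESeq2 1.42.0 was an alternative. The steps were tested on simulated data. Where a group had 1 library, CPM with exact Poisson 95% intervals are given and no test. A member was named with at least 10 UMIs in 1 sum, a ratio of at least 3 and intervals apart. The ratio was taken to the pooled other libraries, and the intervals had to be apart from those of each of them. Libraries are the replicates, and the labels do not say that each came from separate litters, so p-values measure the spread between libraries. Named genes were up to 10 per direction by log2 change past the threshold (or by ratio), and a list of well-known channels by role. Sequences and gene spans came from RefSeq (Sscrofa11.1), which held 91 of the 92 genes. Some genes are counted in the totals but not reported by name here or drawn.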

Additional observations from a re-analysis of the deposited data

Results flagged for a closer look

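The vascular-like cells, which were in none of the class and stage tests, held inward rectifiers and an auxiliary subunit at levels above those of the neuron-like cells. KCNJ8 was at 50.8 CPM at E50, at 63.0, 35.4 and 38.3 CPM at E60, at 80.6 CPM in E70_3 and at 21.4 CPM in the adult, as against at most 2.46 CPM in neuron-like whole cells. KCNJ2 was at 22.6 CPM, at 29.5, 41.7 and 33.9 CPM, at 58.7 CPM and at 26.1 CPM in the same order, as against at most 7.47 CPM. KCNE3 was at 62.7 CPM in E70_3 and at 6.41 to 22.7 CPM in the other vascular-like sums.

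A cluster with cerebellar granule or Purkinje markers, of 131 cells from E50_1 and 143 from E60_1, stood out for KCNJ6, at 2010 CPM. The next cluster, of intermediate progenitor-like cells, had 359 CPM, and the median over clusters was 51.8 CPM.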

How the results depend on the processing

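Each result was computed again with DESeq2, without the filter on low counts, with clusters made without batch correction, with classes from markers alone, without doublets, with other minimum cell numbers, without hemoglobin and mitochondrial genes, and without each library in turn. Leaving out E60_1 and E60_2 together was also run. The stage test of the EGFR cluster, counting that cluster with astroglia, lowering the minimum to 15 cells in microglia, and leaving out E60_3 and E70_1 together were chosen after seeing the data. Of 1385 values of single members, 1236 kept direction and side of the threshold, 131 lost the threshold and 16 gained it. Between the stages in neuron-like cells KCNC4 (1.22) and KCNA6 (0.08) changed direction without E60_1 and E60_2, where the lone E60_3 is assumed to vary like the E70 libraries. No member past the threshold between classes or neuron types reversed. Members called between E60 and E70 in neuron-like cells were 0 with edgeR, 5 with DESeq2, and 0 to 18 without 1 library (18 without E60_3, 3 without E70_3). In microglia-like cells DESeq2 gave 3. In the EGFR cluster DESeq2 gave 1, no filter 1, and leaving out a library 0 to 11 (11 without E70_3). In astroglia-like cells 19 members became 11 without E60_1 and E60_2, and in oligodendroglia-like cells 14 became 8 to 16 without 1 library. The cause of these changes was not tested. Where the share of all genes is not given for a fit, as without E70_3, the count is not read as a result about the members.

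A replicate block by replicate number gave 0 members called in each stage comparison, as without it. The numbers did not pair the libraries in neuron-like cells (correlations of -0.222, 0.000687 and -0.202). Not run were a stage test of astroglia-like cells, of excitatory-like or interneuron-like cells alone, and of microglia-like cells with classes from markers or at least 50 cells, since a stage kept under 2 libraries. Nuclei, E50 and the adult have 1 library each, and genes with under 10 UMIs in both sums were not compared.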

Other observations

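Intermediate progenitor-like cells, named by markers of the precursors of excitatory neurons, held several of the channel genes that were higher in neuron-like cells. Free RNA was not removed, and its part in the values below was not tested. KCNQ3 was at 253 CPM at E50, at 414 CPM in E60_3 and at 313, 232 and 286 CPM at E70, but at 45.2 and 59.4 CPM in E60_1 and E60_2. KCNN3, which opens with calcium, followed the same order, with 122 CPM, 207 CPM and 181, 114 and 148 CPM, and with 2.74 and 27.0 CPM in E60_1 and E60_2. KCNN2 stayed at 2.74 to 16.2 CPM in these cells, where neuron-like cells held 16.3 to 48.9 CPM. KCNJ6 was at 459 CPM in the progenitor-like cells of E60_1 and at 35.5 to 129 CPM in those of the other libraries. E60_1 also gave cells to the cluster with 2010 CPM of KCNJ6, and their part in this value was not tested.

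KCNMB1, a subunit known from smooth muscle, was at 24.2 CPM in the adult vascular-like cells and at 0 to 1.15 CPM in the fetal ones.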
